A study of Mus musculus with 10 samples.

Results

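The conditioned medium (CM) of cancer-associated fibroblasts (CAFs) that lack Snail1 was compared with plain complete medium by the genes that bone marrow-derived macrophages (BMDMΦs) expressed after 48 h. The 2 arrays of BMDMΦs given the CM of Snai1 KO CAFs (KO CAF CM) were set against the 2 arrays of not stimulated BMDMΦs, with the CM of Snai1 WT CAFs (WT CAF CM), IL4 and IFNγ, on 2 arrays each, as a reference. The comparison uses 4 of the 10 arrays of the series and every one of its 22206 probe sets, since no gene was preselected. BMDMΦs came from the femoral and tibial marrow of male C57Bl/6J mice aged 8 to 12 weeks, matured for 7 days with medium conditioned by L929 cells as a source of M-CSF, so all groups share this factor up to the treatment. Not stimulated cells stayed in DMEM with 10% FBS. The CAFs were established earlier from mammary tumors of the MMTV-PyMT mouse, in which a viral promoter drives an oncogene in mammary epithelium, and were deprived of serum for 24 h to make the CM. In the mouse model of the study Snai1 is floxed and a tamoxifen-dependent Cre (Cre-ER) is driven by the β-Actin promoter, thus not by one of fibroblasts alone, and how many independent KO CAF lines gave the CM on the arrays is not stated. IL4 was given at 10 ng/mL and IFNγ at 100 units/mL. How much serum the CM held on the arrays is not stated, and no array held macrophages in starvation medium that had not touched CAFs, so the action of CAF products and that of the medium itself cannot be told apart here. The sample titles and the methods attach the KO to the CAFs, while another field of the labels attaches it to the macrophages. Whether the 2 arrays of a group came from separate mice or cultures is not given, so the spread behind every p-value may be technical.

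Macrophages read microbial and tissue signals through receptors that end on a few transcription factors. NF-kB switches on cytokines, chemokines and its own inhibitors, NRF2 switches on glutathione and detoxification genes, and ATF4 switches on amino acid import and synthesis. A macrophage at rest instead displays receptors for dead cells, mannose receptor and a large lysosomal system, programmes in which PPARγ and C/EBPα take part. Snail1 is a transcription factor that fibroblasts need for their activation, and CAFs release cytokines, prostaglandins and TGFβ that act on the macrophages around them.

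KO CAF CM changed 3292 probe sets against not stimulated BMDMΦs, which is 14.8% of those tested (limma, Benjamini-Hochberg adjusted p under 0.05). Of these, 1516 were higher (6.83%) and 1776 were lower (8%). Those 2 shares of all probe sets are the background for every list count below. Without replicate 1 of the not stimulated arrays the total was 2003, and without any other single array it was between 2339 and 3184. The median difference over all probe sets was -0.01 on the log2 scale. Among the called probe sets the extremes were larger upwards. Of them, 320 were at least 4-fold higher and 284 at least 4-fold lower, whereas 36 were at least 64-fold higher and 5 at least 64-fold lower. Called probe sets with a gene symbol numbered 1382 among the higher and 1619 among the lower, and 291 have no symbol here. The arrays showed no library that stood apart in this comparison: their medians ran from 5.57 to 5.71 over the series, replicates correlated at r of 0.9936 to 0.9952 across probe sets, and the 2 KO CAF CM arrays differed more than 4-fold at 7 probe sets and the 2 not stimulated arrays at 6. WT CAF CM, used below as a reference, had 39 such probe sets. All values below are RMA log2 signals, so that 1 unit is a 2-fold difference, and all differences are KO CAF CM minus not stimulated unless another pair is named. The table holds no detection calls, so whether a probe set near the array medians was above background is not known, and a difference against such a level is no exact fold. In bulk RNA, fewer cells of a kind and less RNA per cell cannot be told apart.

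**Figure D1:**
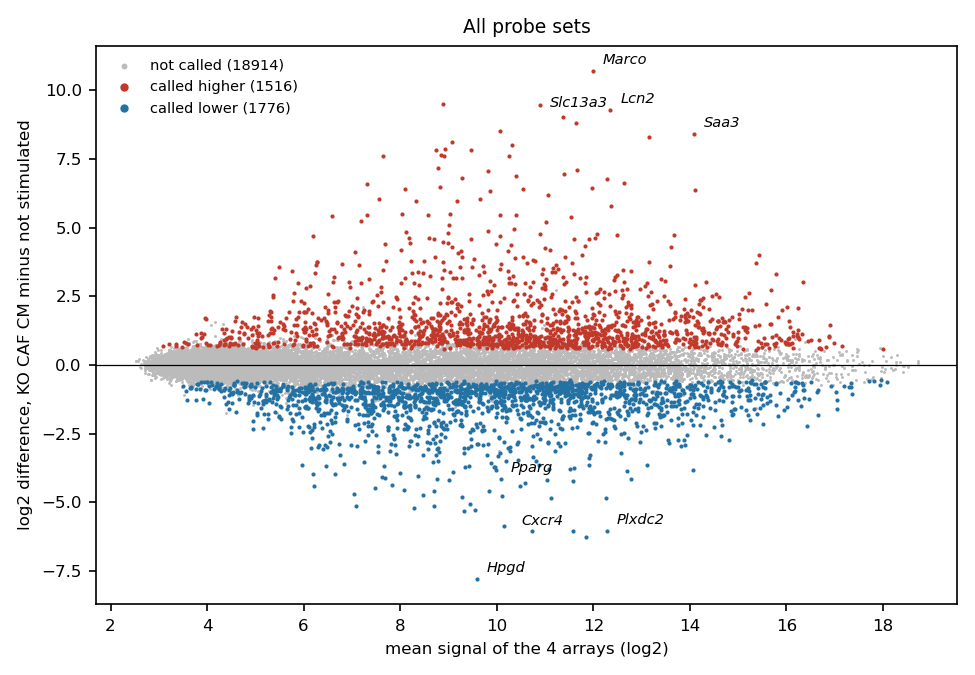
Log2 difference of each of the 22206 probe sets between KO CAF CM and not stimulated BMDMΦs against its mean log2 signal over the 4 arrays, with called probe sets in red (1516 higher) and blue (1776 lower). Marco, Slc13a3, Lcn2 and Saa3 lie at the top, between 8.40 and 10.70, and Hpgd at the bottom at -7.78.

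The labelled cell type was checked by markers of macrophages. Several were not called or rose, while over the whole list of 25 identity genes 11 fell and 3 rose, as described further on. The signal of Csf1r, the M-CSF receptor, was 17.23 and 17.27 in not stimulated BMDMΦs and 17.15 and 17.10 with KO CAF CM, a difference of -0.12 (SE 0.17, adjusted p = 0.734). Spi1, the myeloid master regulator, Itgam (CD11b) and Lyz2 differed by 0.16, 0.18 and 0.10 with adjusted p-values of 0.651 or more. Adgre1, which encodes F4/80, rose by 1.04 (SE 0.20, adjusted p = 0.00427) from 16.28 and 16.43 to 17.31 and 17.49. None of the 21 fibroblast markers measured was called, and their summed signal on the linear scale was 582 and 644 in not stimulated cells and 710 and 663 with KO CAF CM. Snai1 itself was at 4.27 and 4.62 in not stimulated cells and at 4.13 and 4.72 with KO CAF CM, a difference of -0.02 (adjusted p = 0.976), and the groups overlapped.

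Marco, Slc13a3 and Lcn2 headed the higher genes together with U90926. Marco, a collagen-like scavenger receptor for bacteria and particles, had a signal of 6.52 and 6.77 in not stimulated BMDMΦs and of 17.45 and 17.24 with KO CAF CM. It was 10.70 higher (SE 0.25, adjusted p = 7.58e-10). Slc13a3, a sodium-coupled carrier of dicarboxylates, went from 6.09 and 6.26 to 15.47 and 15.77, a rise of 9.45 (SE 0.19, adjusted p = 2.24e-10). Lcn2, which withholds iron from bacteria by binding their siderophores, went from 7.56 and 7.86 to 17.20 and 16.80, a rise of 9.29 (SE 0.38, adjusted p = 4.79e-08). For each of the 3 genes the groups were separated by over 8 units on every array. U90926 was at 4.05 and 4.22 against 13.09 and 14.20 (difference 9.51, SE 0.96, adjusted p = 4.11e-05), and the 2 WT CAF CM arrays, which enter the same estimate of the error, were at 12.97 and 17.32. IL4 and IFNγ left Marco, Slc13a3 and Lcn2 between 5.97 and 7.70 on all 4 of their arrays, which is near or below the not stimulated level.

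**Figure D2:**
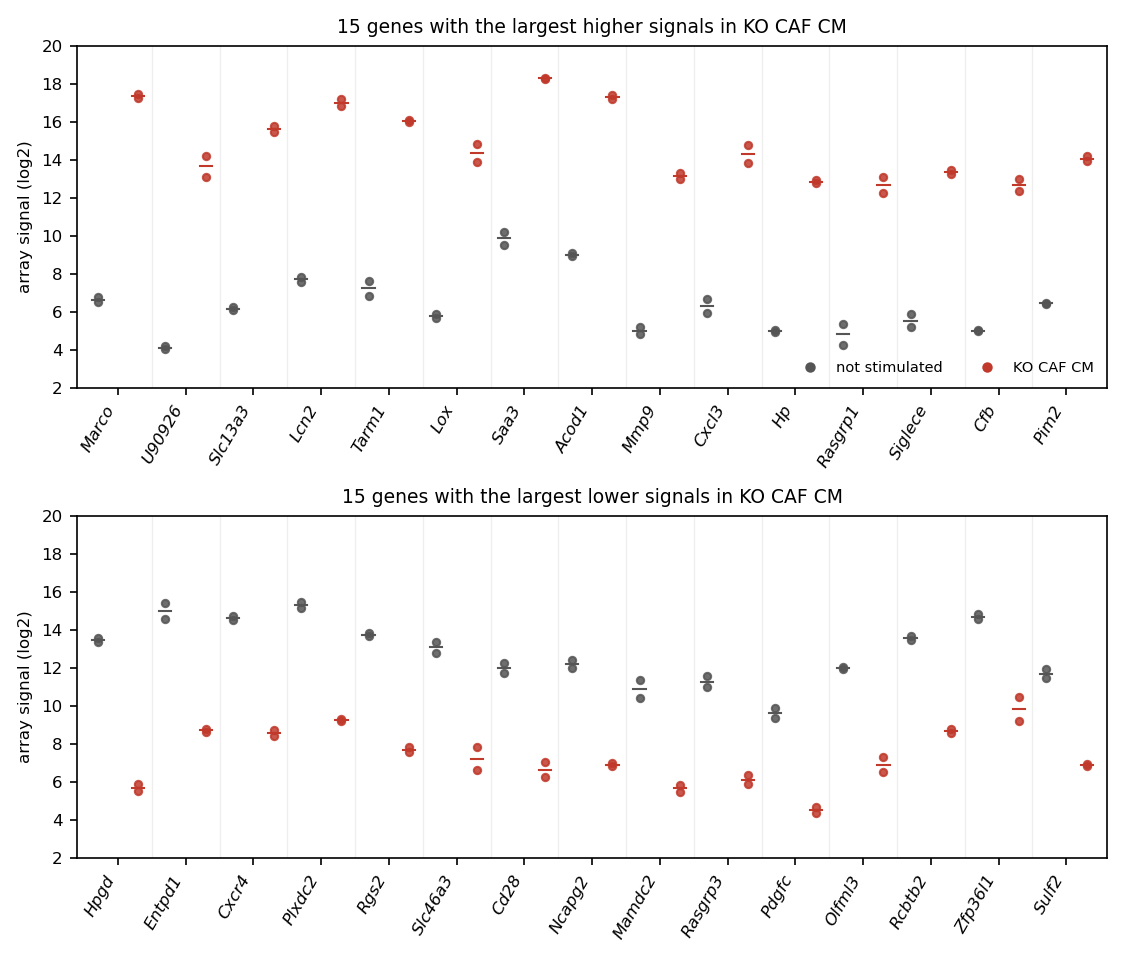
Log2 signals on each array (dots) and their means (dashes) for the 15 named genes with the largest rises and the 15 with the largest falls with KO CAF CM (red) against not stimulated BMDMΦs (grey). The genes were chosen by the size of their difference, so the gap between the groups in all 30 follows largely from that choice. Signals were, for example, 6.52 and 6.77 against 17.45 and 17.24 in Marco, and 13.38 and 13.58 against 5.52 and 5.88 in Hpgd.

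Scavenger and lectin receptors did not move one way. Of 31 measured, 11 rose (35.5%), 7 fell (22.6%) and 13 were not called, with a median of 0.17. Besides Marco, the risers included Clec4e, the receptor Mincle for mycobacterial glycolipid and dead-cell proteins, at 11.03 and 10.80 against 17.39 and 17.20 (difference 6.38, SE 0.24, adjusted p = 2.74e-08). Cd209f and Cd209g, C-type lectins that are close copies of each other and may share probes, rose by 4.11 and 3.54. Mrc1, the mannose receptor CD206, fell from 14.62 and 14.65 to 10.21 and 11.32 (difference -3.87, SE 0.39, adjusted p = 4.33e-05). Msr1, the class A scavenger receptor, was at 13.79 and 14.38 against 14.71 and 15.70, and its rise of 1.12 (adjusted p = 0.0358) was lost without replicate 1 of the not stimulated arrays, without replicate 2 of KO CAF CM or in a fit of the 2 groups alone (adjusted p = 0.0787). The receptors that rose and those that fell were thus different molecules.

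Among inflammatory cytokines every called member was higher. Of 28 measured, 11 rose, 0 fell and 17 were not called, against 6.83% of all probe sets called higher. Il1b, the interleukin-1 that inflammasomes mature, went from 7.23 and 6.69 to 13.22 and 14.47 (difference 6.88, SE 0.39, adjusted p = 6.04e-07). Il6 went from 4.10 and 3.67 to 9.27 and 9.34 (difference 5.42, SE 0.23, adjusted p = 5.77e-08). Tnf was already at 11.25 and 11.36 in not stimulated cells and reached 16.18 and 15.87 (difference 4.72, SE 0.43, adjusted p = 1.92e-05). These 3 are classical products of NF-kB in macrophages. Il1f9, which encodes interleukin-36γ, and Il1a rose by 6.38 (SE 0.31) and 5.98 (SE 0.74). The anti-inflammatory Il10 also rose, from 7.44 and 7.95 to 9.47 and 10.46 (difference 2.27, SE 0.37, adjusted p = 0.00137), as did Il1rn, the natural antagonist of interleukin-1, by 2.21, although the call for Il1rn was lost without replicate 1 of the not stimulated arrays, without replicate 2 of KO CAF CM or with trend and robust moderation (adjusted p = 0.148).

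Chemokines that draw neutrophils and monocytes followed. Of 28 measured CXC and CC chemokines, 12 rose and 2 fell (Ccl6, by 1.79, and Cxcl14), and 7 rose when either replicate 1 of the not stimulated arrays or replicate 2 of KO CAF CM was left out. Cxcl3, a ligand of the neutrophil receptor CXCR2, went from 5.95 and 6.66 to 14.79 and 13.85 (difference 8.02, SE 0.61, adjusted p = 4.95e-06). Its neighbours Cxcl2 and Cxcl1 rose by 6.45 (SE 0.42) and 3.69 (SE 0.37). Ccl5, which draws T cells and monocytes, went from 7.79 and 8.07 to 15.33 and 14.41 (difference 6.94, SE 0.76, adjusted p = 7.53e-05). Ccl2, the main chemokine for CCR2+ monocytes, was at 6.46 and 7.40 against 10.55 and 11.89. Its rise of 4.29 (SE 0.93, adjusted p = 0.008) no longer passed without replicate 1 of the not stimulated arrays or replicate 2 of KO CAF CM, when the adjusted p was at most 0.0733, nor with trend and robust moderation (adjusted p = 0.104).

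Among the receptors for such signals more members fell than rose. Of 17 chemokine and chemoattractant receptors measured, 7 fell and 1 rose (Ccrl2, a non-signalling receptor that presents chemerin), with a median of -0.71. The rise of Ccrl2, 1.49 (adjusted p = 0.00602), was lost without replicate 1 of KO CAF CM or replicate 2 of the not stimulated arrays. Cxcr4, the receptor of CXCL12, fell from 14.74 and 14.49 to 8.71 and 8.40 (difference -6.06, SE 0.24, adjusted p = 3.69e-08). Ccr2, which brings monocytes to tissue, fell from 9.82 and 9.68 to 5.11 and 6.13 (difference -4.13, SE 0.29, adjusted p = 2.31e-06). Gpr183, a receptor for oxysterols, and C5ar2, a second receptor for C5a, fell by 4.04 and 2.90. KO CAF CM arrays were the lower ones for these 4 receptors, with gaps between the groups of over 3 units for Cxcr4 and Ccr2.

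Acute phase proteins are secreted by liver cells and activated macrophages in inflammation. In a joint list of 26 acute phase and antimicrobial secreted proteins measured, 9 rose and 1 fell. Saa3, the serum amyloid A of macrophages, went from 9.53 and 10.23 to 18.30 and 18.26 (difference 8.40, SE 0.32, adjusted p = 2.82e-08). Hp, haptoglobin, which captures free hemoglobin, went from 4.95 and 5.05 to 12.92 and 12.76 (difference 7.84, SE 0.62, adjusted p = 6.87e-06). Cp, the copper ferroxidase ceruloplasmin, rose by 6.34 (SE 0.34). The complement list was divided: of 23 members, Cfb, a subunit of the alternative pathway convertase, rose by 7.65 (SE 0.52), Cd55, which dissolves that convertase, by 5.51 (SE 0.53) and Cfp, which stabilizes it, by 0.78, while 6 fell. The call for Cfp was lost without either not stimulated array or replicate 2 of KO CAF CM. Among these were Vsig4, a complement receptor of resident macrophages, from 8.03 and 9.23 to 4.6 and 4.74 (difference -3.96, SE 0.45, adjusted p = 0.000108), and the subunits of C1q, with C1qc at -1.62 (SE 0.20).

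NF-kB was the list with the largest share of higher members. Of 29 subunits, inhibitors and known targets measured, 22 rose, 1 fell (Vcam1, by 2.69) and 6 were not called, with a median of 2.48 beside -0.01 for all probe sets. The feedback inhibitors stood among them. Nfkbiz, the nuclear IkBζ, went from 9.39 and 9.84 to 14.06 and 14.32 (difference 4.58, SE 0.27, adjusted p = 6.66e-07), and Tnip1, which restrains the pathway with A20, went from 11.08 and 11.04 to 14.65 and 14.34 (difference 3.44, SE 0.22, adjusted p = 1.18e-06). Nfkbia and Tnfaip3 (A20) rose by 2.52 and 2.62. Sod2, the mitochondrial superoxide dismutase, rose from 13.59 and 13.27 to 17.47 and 17.37 (difference 3.99, SE 0.22). This list and the chemokine list hold genes picked as known responders, so their direction is no independent evidence for a pathway.

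Promoters of several of these genes are shown because the risers included 3 neighbouring chemokine genes with the same letters. Those shown were chosen among promoters that hold a match. Sequences are those of RefSeq on GRCm38.p6, 5′ to 3′ on the strand of the gene, with capitals for the match and lower case for the bases on either side of it. Each stretch lies in the 250 bases before the start of the gene. The first 6 mark a match to the NF-kB consensus and the last 2 a match to the C/EBP site TTGCNNAA, all searched on both strands.
Cxcl1: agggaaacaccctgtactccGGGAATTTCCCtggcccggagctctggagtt
Cxcl2: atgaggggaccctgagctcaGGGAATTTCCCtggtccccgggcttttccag
Cxcl3: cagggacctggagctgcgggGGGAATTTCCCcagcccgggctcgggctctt
Il6: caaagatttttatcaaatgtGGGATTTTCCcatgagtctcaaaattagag
Nfkbia: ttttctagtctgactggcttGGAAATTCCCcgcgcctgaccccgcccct
Tnip1: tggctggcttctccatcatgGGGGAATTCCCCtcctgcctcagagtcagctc
Lcn2: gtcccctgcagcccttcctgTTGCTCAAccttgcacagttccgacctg
Saa3: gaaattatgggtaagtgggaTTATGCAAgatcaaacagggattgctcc
The stretches are at chr5:90891154-90891204 (Cxcl1, + strand), chr5:90903782-90903832 (Cxcl2, + strand), chr5:90786008-90786058 (Cxcl3, + strand) and chr5:30013050-30013099 (Il6, + strand). The others are at chr12:55492648-55492696 (Nfkbia, - strand), chr11:54962967-54963018 (Tnip1, - strand), chr2:32387928-32387975 (Lcn2, - strand) and chr7:46715748-46715795 (Saa3, - strand).

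The capitals of Cxcl1, Cxcl2 and Cxcl3 are the same 11 letters, in which 2 overlapping matches lie, and they begin 71, 97 and 73 bases before the start. Of 27025 promoters searched over the same 250 bases, 7.01% held the NF-kB consensus, and of the 1130 promoters of genes called higher with KO CAF CM 10.7% did, beside 7.66% of the 1305 promoters of genes called lower. Among the NF-kB list 9 of 23 promoters held it, and 7 of 18 among its higher members. For the chemokine list these were 6 of 19 and 4 of 8, for inflammatory cytokines 5 of 19 and 2 of 9, and for the NRF2 list 3 of 30 and 0 of 11. Of the named genes with a promoter, 13.3% of the higher and 14.6% of the lower held it. The C/EBP site was in 9.55% of all promoters, 8.76% of those of the higher and 8.66% of those of the lower genes. The core of the antioxidant response element, TGACNNNGC, was in 10.1% of all, 13.3% of the higher and 12.3% of the lower. In the NRF2 list the core was in 5 of 30 promoters, and in 1 of 11 among its higher members. The AP-1 site TGANTCA was in 6.87% of all, 6.28% of the higher and 4.83% of the lower. The core and the AP-1 site shared their first base in 53 promoters. No test was made of these shares, and a match is a run of letters, not a bound site. The promoters of Marco, Il1b and Tnf held none of the 4 motifs in this window.

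Enzymes that make and break prostaglandin E2 moved in opposite directions. Hpgd, the dehydrogenase that inactivates prostaglandins, had the largest fall of all named genes, from 13.38 and 13.58 to 5.52 and 5.88 (difference -7.78, SE 0.28, adjusted p = 2.45e-08). Ptgs2, the inducible cyclooxygenase COX-2, rose from 6.20 and 5.0 to 11.88 and 12.25 (difference 6.46, SE 0.47, adjusted p = 3.61e-06). Ptges, the terminal prostaglandin E synthase, rose from 6.08 and 6.53 to 13.45 and 13.25 (difference 7.04, SE 0.70, adjusted p = 3.84e-05). The exporter Abcc4, the prostacyclin receptor Ptgir and the phospholipase Pla2g4a rose as well, by 2.94, 2.31 and 2.27. Over the whole eicosanoid list, 7 of 23 rose and 6 fell, the latter including the leukotriene gene Alox5ap (-1.18) and the thromboxane synthase Tbxas1 (-1.49).

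Genes around itaconate, an antibacterial metabolite made from cis-aconitate, rose too. Acod1, the enzyme that makes it, went from 9.08 and 8.92 to 17.20 and 17.42 (difference 8.31, SE 0.25, adjusted p = 7.31e-09). Slc25a10, the mitochondrial dicarboxylate carrier, rose by 2.75 (SE 0.20) and Pcx, pyruvate carboxylase, by 2.99 (SE 0.42). Idh1, the cytosolic isocitrate dehydrogenase, fell from 15.88 and 15.71 to 13.82 and 14.12 (difference -1.82, SE 0.31, adjusted p = 0.00193). Of 33 genes of itaconate and the citrate cycle measured, 9 rose and 2 fell. Oxidative phosphorylation showed 5 of 42 higher (11.9%, beside 6.83% of all probe sets) and 0 lower, the most being Cycs, cytochrome c, at 1.60, and the count was 2 or 3 without replicate 1 of KO CAF CM or either not stimulated array.

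Genes of glutathione and of amino acid supply were read next. Of 36 NRF2 targets and glutathione genes measured, 14 rose, 5 fell and 17 were not called. Slc7a11, the cystine importer, belongs to both and went from 9.01 and 8.80 to 16.09 and 15.26 (difference 6.77, SE 0.33, adjusted p = 1.97e-07). Nqo1, a quinone reductase, went from 8.49 and 8.54 to 12.69 and 11.20 (difference 3.43, SE 0.53, adjusted p = 0.000952). Gss, glutathione synthetase, went from 7.71 on both arrays to 11.13 and 10.59 (difference 3.15, SE 0.22, adjusted p = 2.31e-06), Gsr and Gclc rose by 2.89 and 2.54, and Gsta3 by 3.36 (SE 0.27). The 5 that fell were the peroxidases Gpx3 (-3.19), Gpx4 (-1.34) and Gpx1 (-1.21) with Idh1 and Ephx1 (-1.73), and Ephx1 was no longer called without replicate 1 of the not stimulated arrays or replicate 2 of KO CAF CM. Of 35 genes of the ER stress and ATF4 response, 18 rose and 0 fell. Mthfd2, the mitochondrial one-carbon enzyme, went from 8.01 and 8.23 to 12.53 and 12.43 (difference 4.36, SE 0.22, adjusted p = 2.42e-07), and Asns, asparagine synthetase, rose by 2.94. The amino acid importers Slc7a5 and Slc7a1, rose by 3.18 and 2.55.

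Glycolysis and hypoxia genes rose in 18 of 38 and fell in 5, but without replicate 1 of the not stimulated arrays 7 rose and 3 fell, and without replicate 2 of KO CAF CM 10 rose and 3 fell. Pfkl, a phosphofructokinase subunit, rose from 9.04 and 9.51 to 11.86 and 11.82 (difference 2.56, SE 0.29, adjusted p = 8.66e-05). Ndrg1 rose by 2.31 (SE 0.27) and Hif1a, the hypoxia factor, by 1.67, whereas Vegfa, its classical target, fell from 10.73 and 10.60 to 8.96 and 9.23 (difference -1.57, SE 0.28, adjusted p = 0.00231). Egln3, which marks hypoxia, was at 5.47 and 5.60 against 7.37 and 9.38, and its rise (adjusted p = 0.0311) was lost without either not stimulated array, without replicate 2 of KO CAF CM or with trend and robust moderation (adjusted p = 0.159). Ribosome biogenesis genes rose in 18 of 37 with none lower, a count that was between 6 and 11 without any 1 of the 4 arrays compared, and the largest difference, that of Rrp12, was 1.48.

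**Figure D3:**
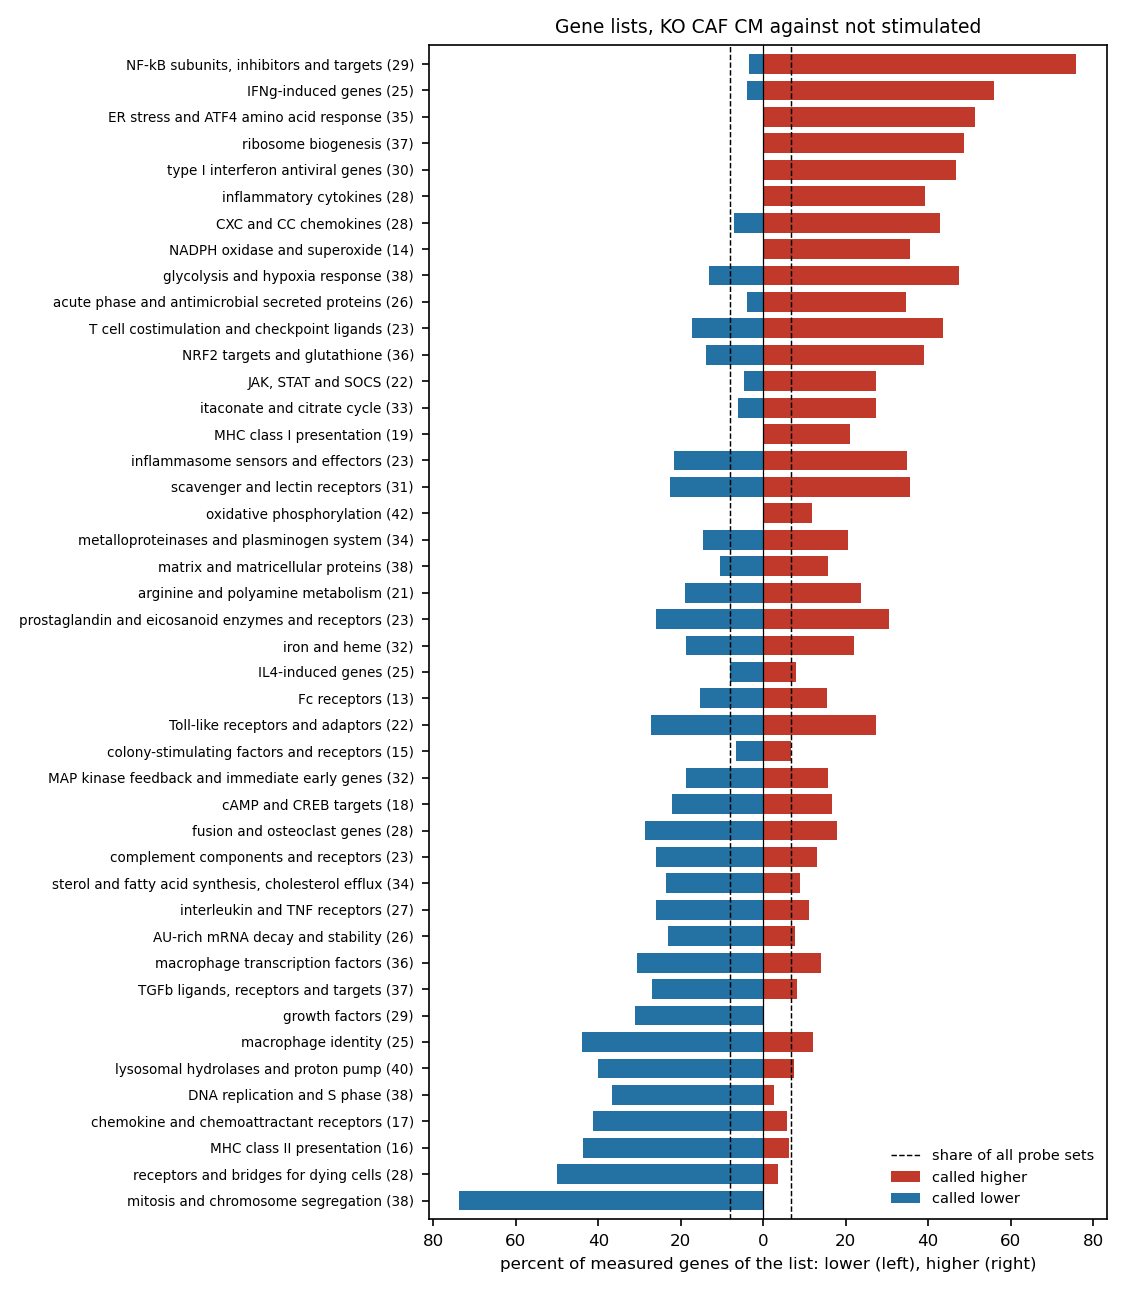
Percent of the measured genes of each list (number in brackets) that were called higher (red, right) or lower (blue, left) with KO CAF CM against not stimulated BMDMΦs, with dashed lines at the shares of all probe sets, 6.83% higher and 8% lower. NF-kB genes (22 of 29 higher) stand at the top and mitosis genes (28 of 38 lower) at the bottom.

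Proteases and matrix enzymes were among the largest rises. Lox, lysyl oxidase, which crosslinks collagen, went from 5.92 and 5.71 to 13.86 and 14.81 (difference 8.52, SE 0.43, adjusted p = 2.23e-07). Mmp9, a gelatinase, went from 4.82 and 5.20 to 12.97 and 13.30 (difference 8.12, SE 0.27, adjusted p = 1.5e-08), and Mmp14, the membrane-bound collagenase, from 7.56 and 7.16 to 13.79 and 13.70 (difference 6.38, SE 0.25, adjusted p = 2.97e-08). Serpinb2, the plasminogen activator inhibitor PAI-2, was at 3.92 and 3.79 against 10.24 and 12.64. Its target Plau, urokinase, fell by 3.12, and Timp2, an inhibitor of metalloproteinases, fell from 15.23 and 15.35 to 12.24 and 12.46 (difference -2.94, SE 0.20, adjusted p = 1.77e-06). Of 34 members of the metalloproteinase and plasminogen list, 7 rose and 5 fell. The matrix list had 6 of 38 higher (15.8%) and 4 lower (10.5%), beside 6.83% and 8% of all probe sets, and 3 higher and 1 lower without replicate 1 of the not stimulated arrays or replicate 2 of KO CAF CM. Its lower count was 2 without replicate 1 of KO CAF CM or replicate 2 of the not stimulated arrays.

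Falls outnumbered rises among the receptors that take up dying cells. Of 28 receptors and bridging proteins for dying cells, 14 fell and 1 rose, with a median of -0.68. The riser was the ATP receptor P2ry2, by 1.02, a call lost without replicate 1 of KO CAF CM or either not stimulated array. Mertk, a receptor tyrosine kinase for engulfment, fell from 12.39 and 11.81 to 9.40 and 9.77 (difference -2.52, SE 0.23, adjusted p = 1.77e-05). Gas6, which bridges Mertk and Axl to phosphatidylserine, fell from 13.20 and 13.59 to 9.84 and 9.41 (difference -3.77, SE 0.31, adjusted p = 9.04e-06). Axl, Pros1 and Mfge8 fell by 2.41, 2.08 and 1.95. Itgb5, an integrin subunit that pairs with αv for the same task, fell from 13.79 and 13.56 to 9.65 and 9.28 (difference -4.21, SE 0.20, adjusted p = 1.84e-07). Both receptors and bridging proteins were among the 14 that fell.

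Of 25 identity genes, 11 fell and 3 rose, and 6 fell without replicate 2 and 7 without replicate 1 of the not stimulated arrays. Trem2, a lipid receptor, fell from 16.17 and 16.19 to 13.79 and 13.13 (difference -2.72, SE 0.23, adjusted p = 1.19e-05). Among 36 macrophage transcription factors 11 fell, 5 rose and 20 were not called, and 7 fell without replicate 1 of the not stimulated arrays or replicate 2 of KO CAF CM. Pparg, which drives lipid handling, fell from 12.10 and 12.20 to 7.77 and 8.26 (difference -4.13, SE 0.34, adjusted p = 9e-06), and Cebpa from 12.60 and 12.32 to 9.74 and 9.56 (difference -2.81, SE 0.21, adjusted p = 3.8e-06). Cebpd, a C/EBP family member of inflammation, rose from 10.10 and 9.72 to 13.11 and 12.77 (difference 3.03, SE 0.24, adjusted p = 7.24e-06). Id3 and Bhlhe40 fell by 3.20 and 2.50. The C/EBP genes of the list therefore split, with Cebpa lower and Cebpd and Cebpb (1.38) higher.

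Lysosomal hydrolases and proton pump subunits were lower in 16 of 40 members (40%) and higher in 3 (7.5%). The shares of all probe sets were 8% and 6.83%. Of the 3 higher members, 0 remained higher without replicate 1 of the not stimulated arrays or replicate 2 of KO CAF CM. Atp6v0d2, a pump subunit of macrophages and osteoclasts, fell from 16.18 and 15.75 to 12.77 and 11.52 (difference -3.82, SE 0.55, adjusted p = 0.000546), and Man2b1, lysosomal mannosidase, from 15.68 and 15.82 to 13.74 and 13.40 (difference -2.18, SE 0.19, adjusted p = 1.14e-05). Of 32 iron and heme genes 7 rose (21.9%) and 6 fell (18.8%), with a median of 0.05. Slc40a1, ferroportin, which exports iron from cells, fell from 13.09 and 12.36 to 8.55 and 8.33 (difference -4.28, SE 0.28, adjusted p = 1.41e-06). Abcg1, which exports cholesterol, fell by 1.98 (SE 0.32). Entpd1, the ectonucleotidase CD39 that clears extracellular ATP, fell from 15.38 and 14.58 to 8.81 and 8.64 (difference -6.25, SE 0.51, adjusted p = 8.01e-06), and Havcr2, the checkpoint receptor TIM-3, from 12.33 and 12.66 to 7.54 and 7.93 (difference -4.76, SE 0.23, adjusted p = 1.91e-07).

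Growth factors that macrophages give to stroma and vessels fell in 9 of 29 and rose in none. Pdgfc fell from 9.38 and 9.90 to 4.69 and 4.35 (difference -5.12, SE 0.25, adjusted p = 1.99e-07). Hgf, the ligand of MET, fell from 10.90 and 10.94 to 8.14 and 7.65 (difference -3.02, SE 0.27, adjusted p = 1.8e-05), and Pdgfa and Pdgfb by 2.78 and 2.10. Of 37 TGFβ ligands, receptors and targets, 10 fell (27%) and 3 rose (8.11%), beside 8% and 6.83% of all probe sets. The rises numbered 0 or 1 without replicate 1 of KO CAF CM or either not stimulated array. Tgfbr1 fell from 13.84 and 13.82 to 11.47 and 11.13 (difference -2.53, SE 0.19, adjusted p = 3.8e-06) and Tgfbr2 by 1.45 (SE 0.29). The ligand Tgfb1 was at 15.89 and 15.69 against 16.03 and 16.08 (difference 0.26, adjusted p = 0.483).

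Mitosis genes had the largest share of falls among the lists. Of 38 mitosis genes 28 fell, 0 rose and 10 were not called, with a median of -1.36 and all 38 differences below 0, the smallest in size being -0.30. Plk1, a mitotic kinase, fell from 8.14 and 7.73 to 4.70 and 5.07 (difference -3.05, SE 0.36, adjusted p = 0.000134), and Cenpa, the centromeric histone, from 9.97 and 10.23 to 6.87 and 6.79 (difference -3.27, SE 0.21, adjusted p = 1.34e-06). Ncapg2, a condensin subunit outside the list, fell by 5.26 (SE 0.22). Of 38 replication genes 14 fell and 1 rose (Ccne1, a call lost without replicate 1 of either group), and 6 fell without replicate 2 of the not stimulated arrays. Mcm6, a helicase subunit, fell from 11.61 and 12.08 to 9.79 and 9.64 (difference -2.13, SE 0.20, adjusted p = 2.92e-05).

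Interferon genes rose without the class II genes that IFNγ raises. Of 25 IFNγ-induced genes 14 rose and 1 fell, with 8 rising without replicate 1 of KO CAF CM and 9 without replicate 1 of the not stimulated arrays, and of 30 type I interferon genes 14 rose and 0 fell, with 9 rising without the latter array. Gbp2, a guanylate-binding protein, went from 11.89 and 10.70 to 15.25 and 14.81 (difference 3.74, SE 0.36, adjusted p = 2.91e-05), while IFNγ took it to 18.40 and 18.42. Cd274, the checkpoint ligand PD-L1, rose from 13.14 and 12.48 to 15.79 and 15.89 (difference 3.03, SE 0.30, adjusted p = 4.1e-05). Usp18 and Isg15, members of the antiviral response, rose by 2.64 and 2.42. Of 16 class II genes 7 fell and 1 rose (Marchf1, a ligase that removes class II from the surface, by 1.54), but 2 fell without replicate 1 of the not stimulated arrays and 3 without replicate 2 of KO CAF CM. H2-DMa, which loads peptides, was at 10.60 and 8.55 against 7.21 and 6.85 (difference -2.54, SE 0.53, adjusted p = 0.0066). H2-Aa was at 13.86 and 12.86 against 12.61 and 11.94 (adjusted p = 0.0541) and H2-Ab1 at 14.87 and 13.79 against 14.98 and 14.28 (adjusted p = 0.685), the groups of the latter overlapping. Ciita, the class II master regulator, was at 8.07 and 6.70 against 6.20 and 5.67 (adjusted p = 0.153).

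Genes that the study followed by PCR were read on the same arrays. Arg1, the arginase of alternative activation, was at 5.17 and 4.99 in not stimulated cells and at 5.44 and 5.56 with KO CAF CM (difference 0.42, SE 1.21, adjusted p = 0.887), and the WT CAF CM arrays, which enter the same error, were at 5.36 and 10.79. Arg2, Cd33 and Thbs1 differed by 0.36, 0.40 and 0.41 with adjusted p-values of 0.352 or more. Nos2, the inducible nitric oxide synthase, was at 4.58 and 5.86 against 7.85 and 7.74, a rise of 2.58 (SE 0.64, adjusted p = 0.0175) that did not pass without either KO CAF CM array, without replicate 1 of the not stimulated arrays or with trend and robust moderation (adjusted p = 0.0745). Myc was at 10.86 and 11.72 against 12.80 and 12.77 (difference 1.5, adjusted p = 0.023), a call lost without the same 3 arrays. Cd86, a costimulatory ligand, was at 7.53 and 7.78 against 6.80 and 7.17 (adjusted p = 0.165), and Ido1 at 2.91 and 2.97 against 3.54 and 3.46 (adjusted p = 0.204).

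Markers of other leukocytes were read beside these changes, with 6.83% of all probe sets called higher and 8% lower as background. Of 17 neutrophil markers 3 rose (17.6%) and 2 fell (11.8%), but Camp, Csf3r, Ltf and Mmp8 were not called without at least 1 of the arrays compared. S100a8 rose from 7.76 and 6.60 to 12.18 and 11.35 (difference 4.58, SE 0.68), while its partner S100a9 was at 6.26 and 6.52 against 5.69 and 6.67 and Elane, Mpo and Prtn3 stayed between 4.39 and 5.54 on all 4 arrays. The summed neutrophil signal was 13830 and 9792 in not stimulated cells and 21410 and 20930 with KO CAF CM. Of 11 monocyte markers 5 rose (45.5%) and 1 fell (9.09%), the summed signal going from 4470 and 6162 to 42080 and 49840. The largest rise of this list, 7.84, was that of Hp, which is also read above with the acute phase proteins. Ly6c2 and Ly6c1, near copies that may share probes, rose by 3.94 and 3.56. Ccr2 fell by 4.13, and Fn1 and F13a1 were between 4.45 and 5.88 on the 4 arrays. Of 17 lymphocyte markers 1 was called (5.88%), Cd4, which fell by 2.21, and Cd3e, Cd3d and Cd79a were between 3.25 and 4.84 on these arrays. The summed lymphocyte signal went from 1869 and 2371 to 654 and 698. Of 16 dendritic cell markers 2 rose (12.5%: Fscn1, by 3.41, and Bst2) and 1 fell (6.25%: Cd83). Their summed signal went from 57070 and 57270 to 124500 and 119300, with Flt3 and Zbtb46 between 3.42 and 3.77. Of 17 markers of mast cells, basophils and eosinophils 1 fell (5.88%: Siglecf, by 3.55) and 2 rose (11.8%: Mcpt1 and Tpsb2). The calls of Mcpt1 and Tpsb2 were each lost without several of the single arrays, either not stimulated one among them. The summed signal of this list went from 2898 and 5698 to 527 and 1181. The part of other cells in the results above was not tested.

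Against WT CAF CM, KO CAF CM differed at 302 probe sets (1.36%), of which 148 were higher (0.666%) and 154 lower (0.694%). These counts fall without 1 array: the total was 142 and 148 without replicates 2 and 1 of KO CAF CM, and 173 and 191 without replicates 2 and 1 of WT CAF CM. Marco, Slc13a3 and Lcn2 were named beforehand as markers. Other genes below were named by rank in a list, or by differing in both comparisons, which share the KO CAF CM arrays. The rest were followed by PCR or chosen after their values were seen. Susd2 was at 3.59 and 4.45 in not stimulated cells, 6.65 and 6.80 with WT CAF CM and 11.38 and 9.86 under KO CAF CM, and KO exceeded WT by 3.90 (SE 0.42, adjusted p = 0.000993). Slc13a3 was at 13.03 and 12.87 with WT CAF CM, 2.67 below KO CAF CM (SE 0.19, adjusted p = 4.75e-05), whereas for Marco the difference of 0.87 (SE 0.25, adjusted p = 0.171) and for Lcn2 that of -0.24 (SE 0.38, adjusted p = 0.916) did not pass. Of 28 inflammatory cytokines 3 were higher and 1 was lower with KO than with WT CAF CM. The higher ones were Tnf, Il1f9 and Il10, by 2.08 (SE 0.43), 2.60 (SE 0.31) and 2.77 (SE 0.37), and the lower one was Tnfsf14, a ligand of the TNF family, with a difference of -1.16. Of 29 NF-kB genes 3 were higher and 0 lower, Nfkbiz among them by 1.44 (SE 0.27). Of 36 NRF2 targets and glutathione genes 6 were higher and 0 lower, including Gss, Gsta3 and Nqo1 by 1.93 (SE 0.22), 2.33 (SE 0.27) and 2.59 (SE 0.53). Against the same not stimulated arrays, list medians with KO and WT CAF CM were 2.48 and 1.75 for NF-kB and -1.36 and -1.13 for mitosis. They were -0.68 and -0.49 for dying cells, and 0.56 and 0.04 for NRF2. No listed gene of mitosis, replication, class II or ribosome biogenesis was called between KO and WT CAF CM.

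Some genes lower with KO than with WT CAF CM had also fallen against not stimulated cells, in comparisons that share the KO CAF CM arrays. Of the 25 identity genes 1 was lower and 1 higher than with WT CAF CM, and of the 28 genes for dying cells 3 were lower. Plxdc2, a membrane protein with a plexin domain, was at 15.47 and 15.13 in not stimulated cells, 14.09 and 13.22 with WT CAF CM and 9.21 and 9.30 with KO CAF CM, and KO lay 4.40 below WT (SE 0.28, adjusted p = 3.56e-05). Zfp36l1, which speeds the decay of mRNAs with AU-rich elements, was at 14.82 and 14.54, 13.96 and 14.08, and 9.22 and 10.46 in the same order, with KO 4.18 below WT (SE 0.32, adjusted p = 9.24e-05). Mrc1, Cxcr4, Ccr2, Mertk and Havcr2 were lower with KO than with WT CAF CM by 2.72, 2.57, 2.34, 1.73 and 1.67 on the log2 scale, with adjusted p-values of 0.00561 or less. Others did not fall against not stimulated cells. Vcan, a matrix proteoglycan, was at 5.96 and 6.23 in not stimulated cells, 11.06 and 11.65 with WT CAF CM and 7.65 and 7.57 under KO CAF CM, which put KO CAF CM 3.75 below WT CAF CM (SE 0.24). Thbs1 and Cd33 were lower with KO than with WT CAF CM by 5.36 (SE 0.41) and 3.83 (SE 0.24).

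**Figure D4:**
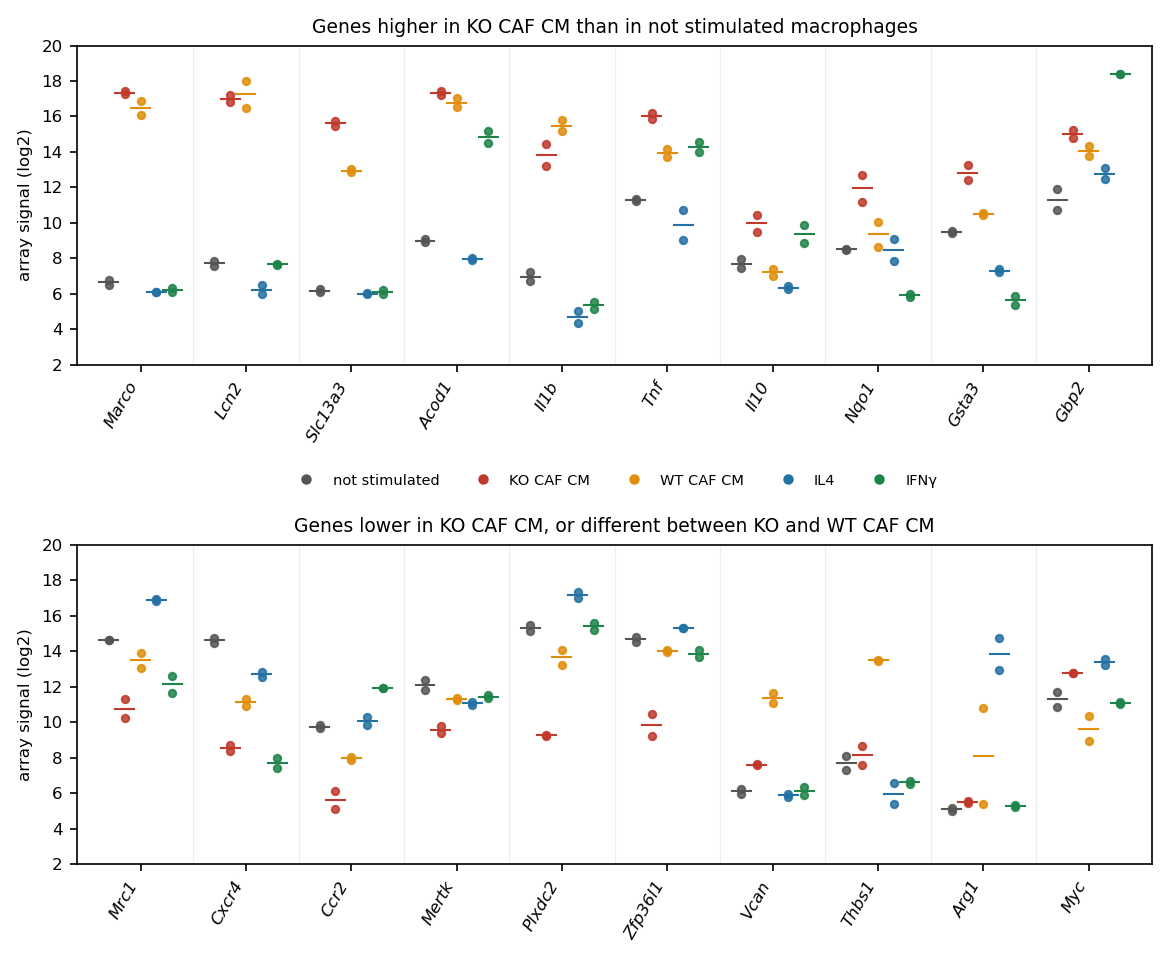
Log2 signals on each array (dots) and means (dashes) of 20 genes in the 5 conditions, with 2 arrays each. Marco, Lcn2 and Slc13a3 lie higher on the 4 CAF CM arrays than on the other 6, Acod1 is also raised by IFNγ (14.51 and 15.19), and Plxdc2 and Zfp36l1 are low with KO CAF CM (9.21 and 9.30, and 9.22 and 10.46) and at 13.22 or above on the other arrays.

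The cytokines that define the classical and alternative states served as the last reference. Against IL4, KO CAF CM differed at 3286 probe sets (14.8%), and against IFNγ at 3121 (14.1%). Mrc1 reached 16.81 and 16.93 with IL4 beside 10.21 and 11.32 with KO CAF CM, and Pparg 13.91 and 14.25 beside 7.77 and 8.26. Of 25 IL4-induced genes 2 were called higher (8%) and 2 lower (8%) between KO CAF CM and not stimulated cells, shares near the 6.83% and 8% of all probe sets. These were Myc and Il4ra higher and Mrc1 and Egr2 lower, and of these Mrc1 alone was called whichever array was left out. IFNγ shared the rise of Acod1, to 14.51 and 15.19, of Tnf, to 13.99 and 14.56, and of Ptgs2, to 12.34 and 11.88, and left Saa3 at 10.89 and 10.37 and Slc7a11 at 6.97 and 6.08 where KO CAF CM gave 18.30 and 18.26, and 16.09 and 15.26. Cxcr4 was low with both, at 7.97 and 7.39 with IFNγ and 8.71 and 8.40 with KO CAF CM.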

How the data were processed

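Total RNA of mouse BMDMΦs was hybridised to Clariom S arrays, 2 per condition in 5 conditions. The log2 signals were deposited by the authors as an RMA table, 1 value per probe set and array, already background-corrected, normalized and summarised (RMA and limma are named in the submitters' processing notes, versions not given in the sources used here). No probe intensities were used, 0 columns were left out, and array number limits the precision. Symbols came from the platform table. Groups were taken from the sample titles.

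One limma model (3.58.1, R 4.3.3) with a mean per condition was fitted over all 10 arrays and 22206 probe sets without a filter (5 residual and 6.43 prior degrees of freedom), with Benjamini-Hochberg adjustment over all probe sets for each contrast and a call at an adjusted p under 0.05. Where several probe sets carried 1 symbol, the brightest on average stood for the gene. The fit was tested on simulated data.

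Members, lists and tests were chosen with earlier results of these data known. Named genes were Marco, Lcn2 and Slc13a3, the 15 largest called differences in each direction with the same sign in both numbered pairs, up to 5 called members of each list with the largest differences (or the 2 of lowest p in a list without calls), then the 8 largest differences in each direction between KO and WT CAF CM among genes called in both comparisons, and genes the study measured by PCR. The other genes, given mostly by 1 value, were chosen after their values were seen. Promoters were those of RefSeq (GRCm38.p6). Alternatives were a filter on dim probe sets, 2-group fits, a replicate block, moderation with trend, array weights, quantile normalization, median centring, a two-sample test, a fold threshold, 1 probe set per gene and leaving out each array.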

Additional observations from a re-analysis of the deposited data

How the results depend on the processing

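The 3292 calls between KO CAF CM and not stimulated BMDMΦs became 2065 (965 higher, 1100 lower) with a fold threshold of 2 beside the adjusted p and 2142 (993 and 1149) with an unadjusted p. An equal-variance two-sample test on 2 against 2 arrays gave 3586 unadjusted and 0 after adjustment, in total, higher and lower, where limma had 5595 unadjusted. Leaving out 1 array gave 2003 to 3184 in total, 989 to 1471 higher and 1014 to 1714 lower, the lowest each without replicate 1 of the not stimulated arrays. Among the calls shared with each alternative, 0 changed sign. Many alternatives, such as trend and robust moderation or the fold threshold, leave each difference as it is, so no sign could change there. With a replicate block there were 3431 calls, with 97.8% of the original ones among them, but the deviations of same-numbered arrays of these 2 groups correlated at 0.194 only and over all pairs of groups at -0.049 to 0.194, so the numbers were not shown to pair the arrays. Median centring gave 50.5% higher calls where the main fit had 46.1%.

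Between KO and WT CAF CM, 302 calls became 104 (54 higher, 50 lower) in a fit of these 2 groups, 1547 (827 and 720) in the two-sample test unadjusted, 0 adjusted, and 489 (235 and 254) with a 2-fold threshold and unadjusted p. With trend and robust moderation 243 were lower. Leaving out 1 array gave 142 to 269 in total, 69 to 138 higher and 54 to 131 lower. The cause of these shifts was not tested.

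Some named genes that were not called between KO CAF CM and not stimulated cells changed sign, while others, such as Arg1 (0.33 to 0.51 without 1 array), did not. Snai1 was at 0.02 after median centring and at -0.315 to 0.275 without 1 array (0.155 without replicate 2 of the not stimulated arrays), Thbs1 at -0.145 to 0.955 and H2-Ab1 at -0.24 to 0.84 (-0.05 without replicate 1 of KO CAF CM). With 2 arrays a group, the median SE of a difference was 0.22.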

Other observations

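Lists of receptors and signalling genes that the comparison above does not describe were also read between KO CAF CM and not stimulated BMDMΦs (limma, Benjamini-Hochberg adjusted p over all probe sets). Of 22 genes of Toll-like receptors and adaptors measured, 6 rose and 6 fell (27.3% each), beside 6.83% and 8% of all probe sets. Tlr1, which pairs with TLR2 for bacterial lipopeptides, went from 11.73 and 11.85 to 15.43 and 15.37 (difference 3.61, SE 0.21, adjusted p = 7.76e-07), and Tlr4, the receptor of lipopolysaccharide, fell from 14.33 and 14.40 to 12.79 and 12.92 (difference -1.51, SE 0.19, adjusted p = 0.00021). Of 22 JAK, STAT and SOCS genes, 6 rose and 1 fell, and 0 fell without replicate 1 of the not stimulated arrays or replicate 2 of KO CAF CM and 2 without replicate 1 of KO CAF CM. Pim2, a kinase that STATs induce, went from 6.48 and 6.43 to 14.19 and 13.92 (difference 7.60, SE 0.36, adjusted p = 1.64e-07). Jak2 and Socs3, a kinase and a feedback inhibitor of cytokine receptors, rose by 2.74 and 3.75. In a separate list of 27 interleukin and TNF receptors 3 rose (11.1%) and 7 fell (25.9%). Its largest fall was that of Il6st, the shared signalling chain of the IL-6 family, from 14.30 and 13.82 to 11.48 and 11.31 (difference -2.66, SE 0.24, adjusted p = 1.8e-05).

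Of 26 genes of AU-rich mRNA decay, 2 rose and 6 fell, and 3 fell without replicate 1 of the not stimulated arrays or replicate 2 of KO CAF CM. The risers were the ribonucleases Zc3h12a, at 10.97 and 10.70 against 14.33 and 13.77 (difference 3.21, SE 0.22, adjusted p = 1.94e-06), and Zc3h12c, with a difference of 3.29. Zfp36l1 and Zfp36l2, which bring AU-rich mRNAs to the decay machinery, fell by 4.84 and 1.68. Among genes of cAMP signalling, the phosphodiesterase Pde4b rose from 9.70 and 9.12 to 13.11 and 12.95 (difference 3.62, SE 0.23, adjusted p = 1.18e-06), and Pde3b and Rgs2, a brake on G protein signals, fell by 2.98 and 6.04. Over the list 3 of 18 rose (16.7%) and 4 fell (22.2%). Of 23 costimulation and checkpoint genes 10 rose and 4 fell, with Cd40 at 7.07 and 7.88 against 11.44 and 10.60 (difference 3.54, SE 0.40, adjusted p = 0.000101). No cause was tested for any of these values.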
